A study of Mus musculus with 6 samples.

Results

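The genes described here are Pink1 and 8 genes for mitophagy receptors, adaptors and membrane-bound ATG8 proteins: Bnip3, Bnip3l, Fundc1, Sqstm1, Optn, Map1lc3a, Map1lc3b and Gabarapl1. They were taken by name, 9 of the 52636 genes in the deposited table, and each was expressed in every library. Mitophagy is the removal of mitochondria through autophagosomes and lysosomes. The kinase PINK1 accumulates on depolarised mitochondria, where it phosphorylates ubiquitin, and the resulting ubiquitin chains are read by adaptors such as optineurin and p62. A parallel route uses receptors anchored in the outer mitochondrial membrane, BNIP3, NIX (gene Bnip3l) and FUNDC1, which bind LC3 and GABARAP proteins on the growing autophagosome directly. The hair cells (HCs) that sense movement in the inner ear are rich in mitochondria, and mitophagy has been studied in them in the context of ototoxic drugs.

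RNA-seq was done on the vestibular sensory epithelium of male 129S1/SvImJ mice of 2 to 4 months of age. The Control group (n = 3) drank water, and the IDPN group (n = 3) drank water with 30 mM 3,3'-iminodipropionitrile, a nitrile toxic to HCs, for 8 weeks. The labels name no transgene or deletion in either group. Each library came from 1 animal, with 2 utricles and 6 cristae pooled, so each level is a mixture of HCs, supporting cells and other cells of the dissected tissue. The animal codes in the titles begin alike for the 3 Control mice and differently for the IDPN mice, and what this start of the code stands for cannot be told apart from the treatment.

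Library totals lay between 40474847 and 43566332 estimated counts, and the size factors that scale libraries to each other between 0.825 and 1.21. The share of the 100 most abundant genes was 52.0% ± 3.26 for Control against 46.4% ± 1.79 for IDPN (SD, 3 libraries each, two-sided exact permutation p = 0.10, the smallest possible with 3 against 3 libraries, adjusted p = 0.15 over 3 measures). All 16 HC markers were detected in every library. Their summed normalised counts were 803007 to 1054250 in Control and 589523 to 792278 in IDPN, without overlap, and 9 of the 16 were called lower by DESeq2. The 12 supporting cell markers gave 321257 to 450764 against 228636 to 275017. Of these 12, 5 had a higher and 7 a lower mean in IDPN, and DESeq2 called 1 higher and 1 lower. The summed counts of 12 macrophage markers were 6020 to 7760 in Control against 8590 to 13206. DESeq2 called 1 of the 12 higher, and edgeR with its low-count filter called 0. The 9 erythroid markers, 2 of them at 0 in all libraries, gave 16256 to 36726 against 34769 to 49206. DESeq2 called 4 of the 6 tested higher, and edgeR with its low-count filter called 0. The 4 DESeq2 calls fell to 0 without Control 1, IDPN 1 or IDPN 2, and to 1 without Control 3 or IDPN 3. They stayed at 4 without Control 2. The 9 neuron markers gave 4995 to 5222 against 3180 to 3457, with 3 of 8 tested called lower. The 7 melanocyte markers gave 6685 to 14843 against 15009 to 22921, with 0 called by DESeq2 or by edgeR with its low-count filter and 4 at an unadjusted p under 0.05. The summed counts of 11 muscle markers did not exceed 109 in any library. The 9 Schwann cell markers gave 257987 in Control 1 and 107160 to 139866 in the others, with 0 called by DESeq2. Control 1 was also highest for 9 stroma markers (1602580 to 2569730 against 1655620 to 1854970, 1 called higher). The same held for 8 dark cell markers (54284 to 89468 against 58819 to 67852, 1 called higher). It also held for 8 endothelium markers (8011 to 13125 against 7611 to 11576, 1 called lower). The part of these cell type markers in the results for the members was not tested. In bulk tissue, fewer cells of a type and less RNA per cell cannot be told apart. The study counted hair bundles in electron microscope images of central utricles from earlier mice. It found their number unchanged after 8 weeks of IDPN, and it also saw extruding HCs.

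The members differed widely in abundance. Between genes, levels are compared as normalised counts per kilobase of transcript. In Control, Map1lc3b (10498 ± 2513 per kb, SD, n = 3) and Sqstm1 (10051 ± 2218) were the most abundant, and their ranges overlapped. Gabarapl1 held rank 3 in each Control library, at 6874 ± 1653 per kb, and its range overlapped with theirs. Bnip3 (3272 ± 487), Bnip3l (3128 ± 678), Map1lc3a (2788 ± 547), Fundc1 (2598 ± 612) and Pink1 (2507 ± 1332) could not be ordered beyond their spread. Optn was the least abundant member in every library, at 264 ± 25.5 per kb in Control. Pink1 held rank 8, 7 and 4 among the 9 members in Control 1, 2 and 3. In IDPN it held rank 3, 4 and 3, at 6016 ± 428 per kb, so that its rank in IDPN 2 was that in Control 3. Sqstm1 and Map1lc3b exchanged ranks 1 and 2 between the groups.

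Pink1 (ENSMUSG00000028756, GRCm38 chr4:138313409-138326307, minus strand) was the only member whose groups did not overlap. In Control 1 to 3 its normalised counts were 2474, 6730.3 and 8658, against 13120.5, 14971 and 14773 in IDPN 1 to 3. Every IDPN library lay above every Control library, and Control 1 lay far below the other 5. The mean was 5954 ± 3164 for Control and 14288 ± 1016 for IDPN (SD, n = 3 each). This corresponds to a log2 fold change of 1.26 (SE 0.51, 95% confidence interval 0.27 to 2.25), or 2.40-fold. The DESeq2 Padj was 0.128 over the 17650 genes tested, from 0.0126 unadjusted. A gene was called when Padj was under 0.05 and the fold change above 1.5, so Pink1 was not called. The edgeR quasi-likelihood test with its low-count filter gave a Padj of 0.105.

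**Figure D1:**
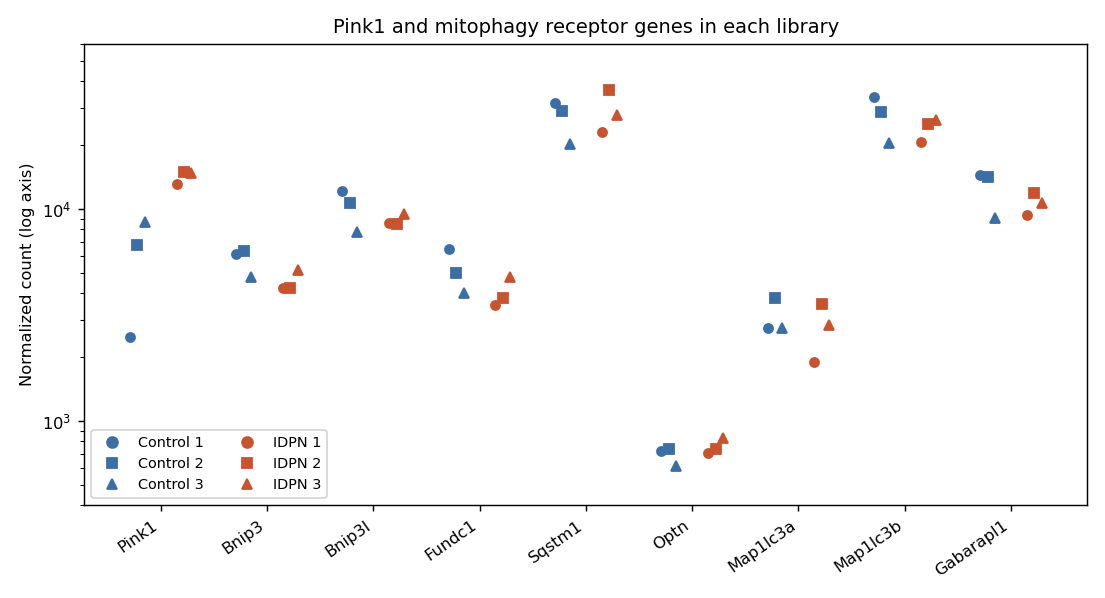
Normalised counts (log axis) of the 9 members in each of the 6 libraries, with Control in blue, IDPN in red and 1 marker shape per replicate. Pink1 is the member with all IDPN libraries (13120.5 to 14971) above all Control libraries (2474 to 8658), and the other 8 members overlap between the groups.

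The spread of Pink1 lay among the Control animals. The highest Control library held 3.50 times the lowest, against 1.14 times among the IDPN libraries. The standard deviation of log2 counts in Control was 0.96, above that of 99.2% of genes with a mean normalised count of at least 100, and in IDPN it was 0.10. Among the other 8 members the highest Control library held 1.20 to 1.64 times the lowest. The order also differed among the members: the 8 others all had Control 3 as their lowest Control library, whereas Pink1 had it as its highest. Of the pathway genes named below, Tomm70a, Bcl2l13, Tbk1, Ulk1 and Tfeb also had Control 3 as their highest Control library. Those with it as their lowest included Tomm7, Gabarap, Gabarapl2, Tax1bp1, mt-Co3, Adm and Fbxo32. The value of Pink1 in Control 1 was 0.37 of the next lowest library. Control 1 held 116 of 11770 expressed genes below 0.5 of the lowest other library, whereas the other 5 libraries held 4 to 36 such genes each. Pink1 was among these 116, as was Lamp1, a major lysosomal membrane glycoprotein gene named here after its values were seen, with 9748 counts in Control 1 and 53308 to 66532 in the other 5. The part of this library property in the Pink1 result was not tested beyond leaving the library out. Without Control 1, the log2 fold change of Pink1 was 0.89 (SE 0.18) with a DESeq2 Padj of 0.000113.

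The call for Pink1 changed between settings, in part together with the variance assigned to it. DESeq2 draws the dispersion of each gene (its variance between replicates beyond counting noise) towards a trend across genes, but keeps the gene's own estimate when it lies too far above that trend. The dispersion of Pink1 was 0.184 by its own estimate, 0.0225 on the trend and 0.0667 after shrinkage. Pink1 was 1 of 281 genes (1.09%) whose own estimate was kept. When size factors came from total counts, its own estimate was no longer kept, the dispersion used was 0.0946, and Pink1 was called (log2 fold change 1.44, SE 0.36, Padj 0.0041). With offsets for transcript GC content the dispersion used was 0.0624 and Pink1 was again called (log2 fold change 1.22, SE 0.29, Padj 0.00157). Pink1 has a GC content of 59.0%, above that of 93.9% of expressed genes, and the offsets at that GC content ran only from -0.06 to 0.10 on the log2 scale. Leaving out Control 3 gave 1.64 (SE 0.50, Padj 0.0173) with the gene's own estimate kept. edgeR without a filter on low counts gave 1.26 (Padj 0.00421). Over the 17 alternatives run, the log2 fold change of Pink1 stayed between 0.89 and 1.64, the gene was called in 5, and it was not called in the other 12. The share of all genes called in those 5 fits was 4.92% with total-count scaling, 5.45% with GC offsets, 4.05% with edgeR without a low-count filter, 3.9% without Control 1 and 8.33% without Control 3.

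**Figure D2:**
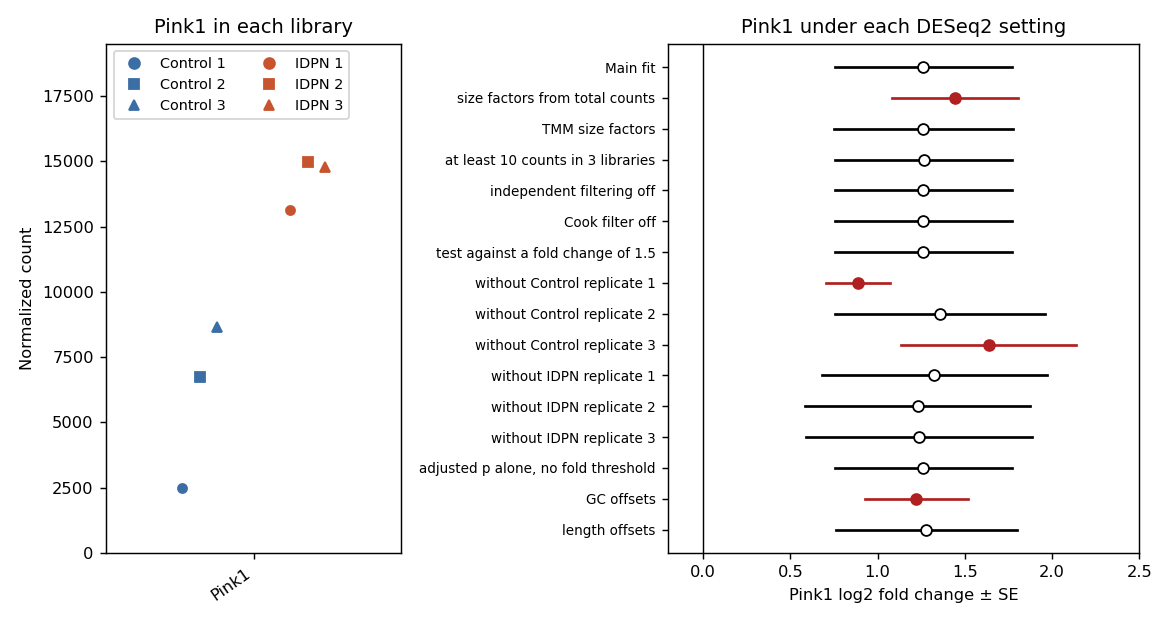
Left, normalised counts of Pink1 in each library, with Control in blue and IDPN in red. Right, log2 fold change of Pink1 with its SE in the main DESeq2 fit and under each DESeq2 alternative, filled red where Padj was under 0.05. It was 0.89 to 1.64 under all of them.

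The promoter of Pink1 is printed because Pink1 was the member that stood apart, and that of Bnip3, a known target of hypoxia-inducible factors, because it is the member window with both forms of the hypoxia response core. RefSeq promoter windows (GRCm38.p6, 250 bases before to 50 after the start) matched 7 of the 9 members, all but Bnip3l and Map1lc3a. Both sequences are the 250 bases before the start, on the minus strand, chr4:138326297-138326546 for Pink1 and chr7:138909507-138909756 for Bnip3. Capitals mark ACGTG and GCGTG on either strand, which are the core letters of hypoxia response elements.
Pink1: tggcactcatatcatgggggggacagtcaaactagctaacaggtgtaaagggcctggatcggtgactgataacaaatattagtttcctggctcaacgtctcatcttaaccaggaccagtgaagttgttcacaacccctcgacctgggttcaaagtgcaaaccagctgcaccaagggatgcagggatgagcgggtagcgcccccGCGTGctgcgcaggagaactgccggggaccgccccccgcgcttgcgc
Bnip3: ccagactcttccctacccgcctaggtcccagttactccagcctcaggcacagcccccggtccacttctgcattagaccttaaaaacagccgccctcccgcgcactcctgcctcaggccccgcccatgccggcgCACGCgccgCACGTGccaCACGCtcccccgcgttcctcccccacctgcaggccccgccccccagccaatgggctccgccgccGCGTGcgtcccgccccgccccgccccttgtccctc
Pink1 held 1 match, GCGTG at position -47 counted from the start. ACGTG was absent from its window. Bnip3 held GCGTG 3 times, at -117, -99 and -35, and ACGTG on both strands at -108 and -107, where the matches overlap within the E-box CACGTG. Of all 32851 promoters, 32.4% held GCGTG, 19.6% ACGTG and 7.15% CACGTG. The full ATF or CREB site TGACGTCA (1.79% of promoters) and the FOXO site GTAAACA (3.65%) were in none of the 7 windows, and the shorter ATF core TGACG (20.8%) was in that of Map1lc3b alone, at -15. A match is a description of the letters only.

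Among 11195 candidate genes, those most like Pink1 across the 6 libraries were Tpbg, Zfp622, Psme3, Yars2, Pnrc1 and Rab24, ranked by the root mean square difference of log2 counts after centring each gene on its mean. Tpbg, which encodes the trophoblast glycoprotein 5T4, was the closest, with a difference of 0.06. Its counts were 281, 711 and 954 in Control and 1329.9, 1522 and 1527 in IDPN. Tpbg was called (log2 fold change 1.17, Padj 0.00494). Psme3, a proteasome activator subunit gene (1.24, Padj 0.00455), and Yars2, the mitochondrial tyrosyl-tRNA synthetase gene (0.97, Padj 0.0496), were also called, while Zfp622 (1.19, Padj 0.293), Pnrc1 (1.01, Padj 0.407) and Rab24 (1.27, Padj 0.217) were not. All 6 are, like Pink1, among the 116 genes that lay far below the other libraries in Control 1. The 6 were picked for likeness to Pink1 in these same libraries, so their higher IDPN values and low Control 1 values follow from the choice. Their calls are no separate evidence on Pink1. These values describe 6 libraries and share their depth and scaling. The members nearest to Pink1 were Optn, with a difference of 0.89 and rank 4394, and Sqstm1, with 0.99 and rank 7293.

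**Figure D3:**
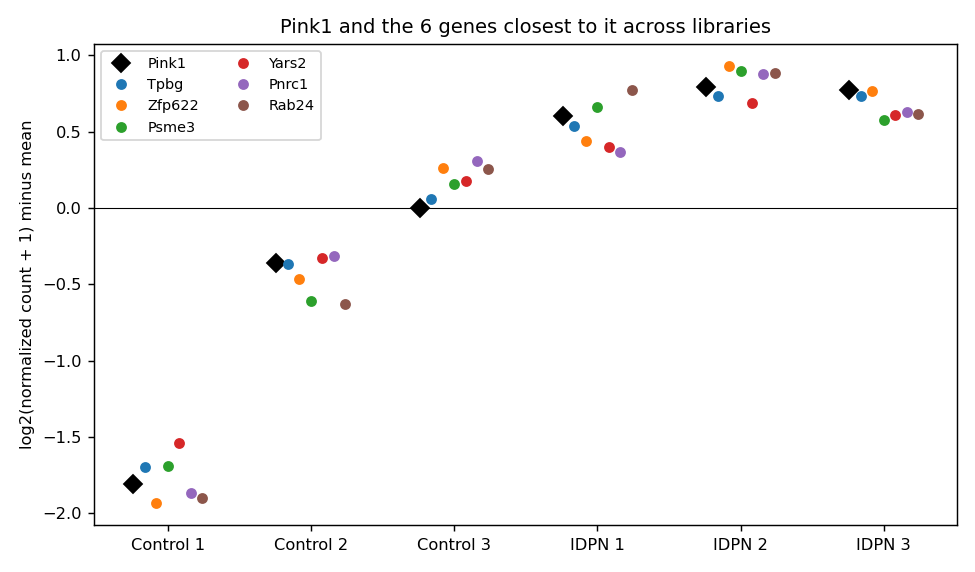
Centred log2(normalised count + 1) of Pink1 (black diamonds) and the 6 genes closest to it (coloured points) in each library. The 6 genes were picked for this closeness, so the shared pattern follows from the choice. All 7 genes have their lowest value in Control 1, and the 6 differ from Pink1 by 0.06 to 0.19 (root mean square, log2).

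Atf3, a stress-induced transcription factor gene that the study discusses beside Pink1, was 65.5, 38.1 and 69.4 in Control and 102, 3419.7 and 143 in IDPN. The study found Atf3 upregulated in mice given IDPN, and it states that Pink1 expression was not seen to change in its experiments. Those experiments covered rats as well as mice, and the study called genes at the thresholds used here. IDPN 2 carried far more Atf3 than the other IDPN libraries. Its Pink1 count of 14971 was close to the 14773 of IDPN 3. A link between these genes was not tested. IDPN 2 held 133 of 11770 expressed genes above 2 times the highest other library, against 0 to 17 in the other 5 libraries. DESeq2 gave Atf3 no p-value because of that library, and edgeR gave a Padj of 0.0892.

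The 3 receptors of the outer mitochondrial membrane had a lower mean in IDPN, which turned for Bnip3l with total-count scaling (0.079), and none was called. Bnip3 (chr7:138890836-138909519, minus strand) had 6126, 6345 and 4767 counts in Control and 4236, 4233 and 5155 in IDPN. IDPN 3 lay above Control 3, so the groups overlapped. The log2 fold change was -0.34 (95% confidence interval -0.68 to -0.0016, DESeq2 Padj 0.293). Bnip3l (chr14:66985239-67008877, minus strand), whose product NIX clears mitochondria from maturing red blood cells, had 12149, 10637 and 7797 counts in Control and 8565, 8519 and 9434 in IDPN. All 3 IDPN values lay within the Control range, and the log2 fold change was -0.21 (-0.56 to 0.15, Padj 0.648). Fundc1 (chrX:17556564-17572325, minus strand), a receptor known for hypoxia-induced mitophagy, had 6435, 5000.1 and 4021 counts in Control and 3525, 3785 and 4772 in IDPN. IDPN 3 again reached into the Control range, and the log2 fold change was -0.36 (-0.75 to 0.04, Padj 0.373). The interval of Bnip3l lay within a 1.5-fold change in either direction (0.585 on the log2 scale), but reached -0.69 when libraries were left out and passed that limit in 4 of the 15 DESeq2 alternatives. Those of Bnip3 and Fundc1 did not exclude a 1.5-fold decrease. Of the 76-base stretches of the Bnip3 transcript, 45.7% also occur in other annotated genes (AC160336.1, Gm16439, Gm45507, Gm6532 and Gm9419). Of those of Bnip3l, 18.6% occur in Bnip3l-ps. The estimated counts of both therefore depend on how reads were divided.

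The ubiquitin-binding adaptors differed between the groups by less than the spread between libraries. Sqstm1 (chr11:50199366-50210827, minus strand), which encodes p62, had 31475, 28944 and 20178 counts in Control and 22949.6, 36572 and 27831 in IDPN. The lowest library was a Control and the highest an IDPN library, with wide overlap. Its log2 fold change was 0.12 (-0.30 to 0.53, DESeq2 Padj 0.866), and the sign turned when Control 3 (-0.052) or IDPN 2 (-0.082) was left out. Optn (chr2:5020642-5064051, minus strand), which encodes optineurin, a main adaptor of the PINK1 route, had 723, 736 and 615 counts in Control and 705, 734 and 829 in IDPN. Of these, only the value of IDPN 3 lay above the Control range. The log2 fold change of Optn was 0.13 (-0.22 to 0.48, Padj 0.802). Both intervals lay within a 1.5-fold change, but that of Sqstm1 passed it in 5 of the 15 DESeq2 alternatives and that of Optn in 2, with upper bounds of up to 0.75 and 0.82 under total-count scaling. Reads from Sqstm1 and from Mrnip, which overlaps it on the other strand, could not be told apart by strand, but Mrnip had at most 112 counts in any library.

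The ATG8 genes, whose lipid-bound products line the autophagosome, were also not called. Map1lc3b (chr8:121590361-121598760, plus strand), the LC3 gene most used as an autophagosome marker, had 33673, 28686 and 20565 counts in Control and 20751, 25125 and 26315 in IDPN. The IDPN values all lay within the Control range, and the log2 fold change was -0.20 (-0.58 to 0.18, DESeq2 Padj 0.691). Map1lc3a (chr2:155276297-155278073, plus strand), the LC3A gene, had 2757, 3803 and 2742 counts in Control and 1898, 3564 and 2827 in IDPN. IDPN 1 was lowest and the other 2 IDPN libraries lay within the Control range, giving -0.17 (-0.61 to 0.28, Padj 0.803). Gabarapl1 (chr6:129533160-129542346, plus strand), a GABARAP subfamily gene, had 14379, 14110.4 and 9040.1 counts in Control and 9314, 11929 and 10683 in IDPN. Its IDPN values lay between the lowest and the second highest Control, and the log2 fold change was -0.23 (-0.62 to 0.16, Padj 0.626). The interval of Map1lc3b barely stayed within a 1.5-fold change and passed it in 5 of the 15 DESeq2 alternatives, with a lower bound of down to -0.73. Those of Map1lc3a and Gabarapl1 did not exclude a decrease of that size. Part of Gabarapl1 (17.4% of its 76-base stretches) is shared with 1700101I11Rik on the other strand, which had at most 70.4 counts in any library. The 2 other GABARAP genes, Gabarap (-0.40, Padj 0.297) and Gabarapl2 (-0.54, Padj 0.146), were not called either.

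**Figure D4:**
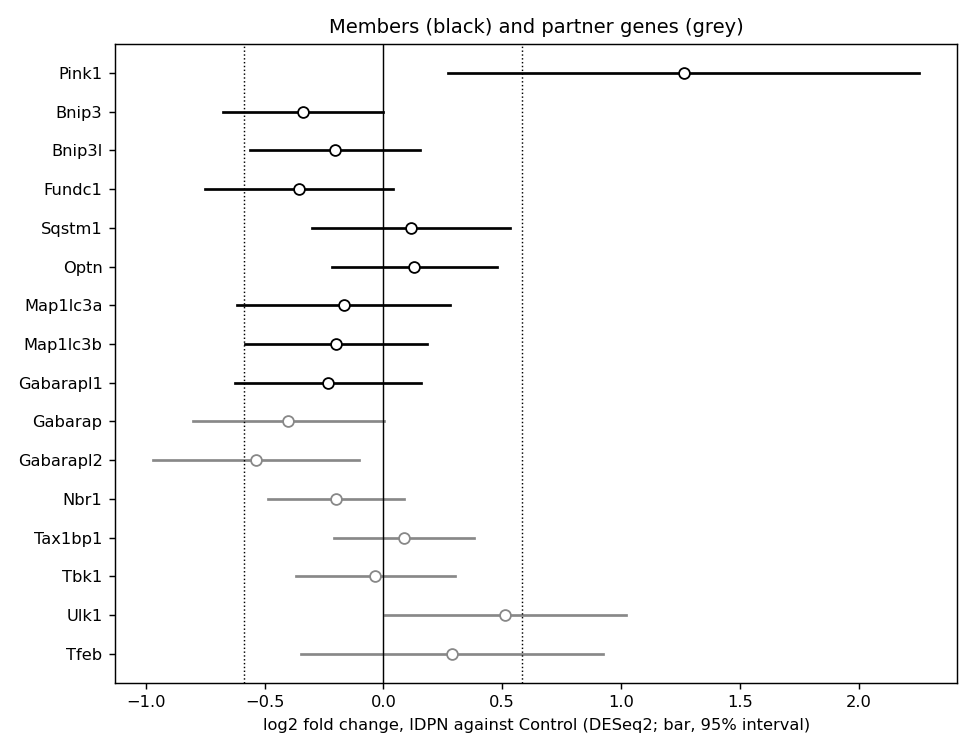
DESeq2 log2 fold change of IDPN against Control with its 95% confidence interval for the 9 members (black) and 7 partner genes (grey), with filled points for called genes and dotted lines at a 1.5-fold change. None of the 16 genes is called, and the interval of Pink1 (0.27 to 2.25) lies above 0.

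In all, DESeq2 called 0 of the 9 members, against 5.75% of the 17650 genes tested (2.32% higher and 3.42% lower). At an unadjusted p under 0.05 there were 2 members, Pink1 and Bnip3, which is 22.2% of the members against 16.9% of all genes. edgeR with its low-count filter called 0 members, against 3.21% of all genes. Groups did not overlap for 1 of 9 members, against 22.5% of all genes (11.1% with all IDPN libraries higher). Of the members 3 had a higher and 6 a lower mean in IDPN, and their median log2 fold change was -0.20 against 0.02 for all genes. Scaling by total counts raised the median of all genes by 0.25 and turned the sign of Bnip3l (0.079), Map1lc3a (0.063), Map1lc3b (0.078) and Gabarapl1 (0.041), so no direction is given for those 4. The mean of Pink1 and Optn was higher, and that of Bnip3 and Fundc1 lower, under each of the 17 alternatives.

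The genes around the members were read from lists of the pathway. In the PINK1 list, 1 of 27 genes was called higher and 1 lower, with a median log2 fold change of -0.011. The lower gene was Tomm7, a small translocase subunit gene that is needed to hold PINK1 on the outer membrane. Tomm7 was 1220.1, 1572 and 1021 in Control and 729.9, 854 and 935 in IDPN (log2 fold change -0.60, DESeq2 Padj 0.0492, edgeR Padj 0.106). The higher one was Tomm70a, an import receptor gene, with 448, 518 and 969.8 counts in Control and 941, 1265 and 1162 in IDPN. Its groups overlapped (0.80, DESeq2 Padj 0.044, edgeR Padj 0.159). Tomm7 and Tomm70a each kept the call in 1 of 6 fits with a library left out, and with total-count scaling both lost it (Tomm7 -0.33, Padj 0.415, and Tomm70a 0.97, Padj 0.0593).

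Among 16 other receptors and adaptors, 1 was called higher and 0 lower. This was Bcl2l13, an outer membrane receptor gene, with 358, 337 and 372 counts in Control and 471, 657 and 532 in IDPN (0.64, DESeq2 Padj 0.0322, edgeR Padj 0.0692). The groups did not overlap, and the call held in 2 of 6 fits with a library left out. The adaptors Nbr1 (-0.20, Padj 0.541) and Tax1bp1 (0.09, Padj 0.857) and the kinase Tbk1 (-0.03, Padj 0.959), which phosphorylates optineurin, were not called. Of 13 genes for ATG8 conjugation, Atg10, an E2-like enzyme gene, was called lower, with 440.3, 497 and 480.4 counts in Control and 289.7, 269 and 337 in IDPN (-0.66, DESeq2 Padj 0.019, edgeR Padj 0.0548). No Atg10 value overlapped between the groups, and the call held in 3 of 6 fits with a library left out but not with total-count scaling (-0.41, Padj 0.395).

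No gene was called in the main DESeq2 fit or by edgeR with its low-count filter in the lists for autophagy initiation (22 genes, 1 at an unadjusted p under 0.05), lysosome (27 genes, 4 at that p), mitochondrial fission and fusion (13 genes, 1), mitochondrial biogenesis and mass (19 genes, 2) and NRF2 targets (13 genes, 2). Of the NRF2 targets 2 were called higher by edgeR without that filter, 1 each with total-count scaling, TMM factors or GC offsets, and 2 without Control 3. Without Control 3, 1 initiation gene and 1 fission and fusion gene were also called higher, and of the biogenesis and mass genes 1 was called higher and 1 lower. The initiating kinase gene Ulk1 was at 0.51 (Padj 0.287) and Tfeb, a master regulator of lysosomal genes, at 0.29 (Padj 0.748). The median log2 fold change of the 19 biogenesis and mass genes was -0.02, and that of the 13 fission and fusion genes was -0.0036.

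The mitochondrially encoded genes stood apart from those nuclear lists. All 13 had a lower mean in IDPN, with a median of -0.73, and 8 were called lower. mt-Co3, a cytochrome c oxidase subunit gene, was 73433, 71707 and 50372 in Control and 28940.5, 38416 and 36705 in IDPN (-0.91, DESeq2 Padj 9.82e-05, edgeR Padj 0.0619). mt-Nd5 and mt-Nd6 (both -0.81) and mt-Nd2 (-0.79) followed. edgeR called 0 of the 13 with its low-count filter and 5 without it, and with total-count scaling 1 was called, mt-Co3. Leaving out Control 1 reduced the 8 calls to 2, leaving out Control 2 or IDPN 1 to 3, and leaving out Control 3 gave 11. With offsets for transcript length only mt-Nd2 (-0.63), mt-Nd5 (-0.75) and mt-Co3 (-0.67) were called, and mt-Atp8 was at -0.08. With GC offsets mt-Nd1 (-0.64) and mt-Nd6 (-0.68) were called beside mt-Nd2, mt-Nd5 and mt-Co3. All 13 stayed lower under both offsets. A mitochondrial share of all counts was computed over every gene whose symbol starts with mt-, not over these 13 alone. It was 11.5% ± 1.44 for Control against 8.85% ± 0.94 for IDPN (SD, 3 libraries each, exact permutation p = 0.10, adjusted p = 0.15 over 3 measures).

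**Figure D5:**
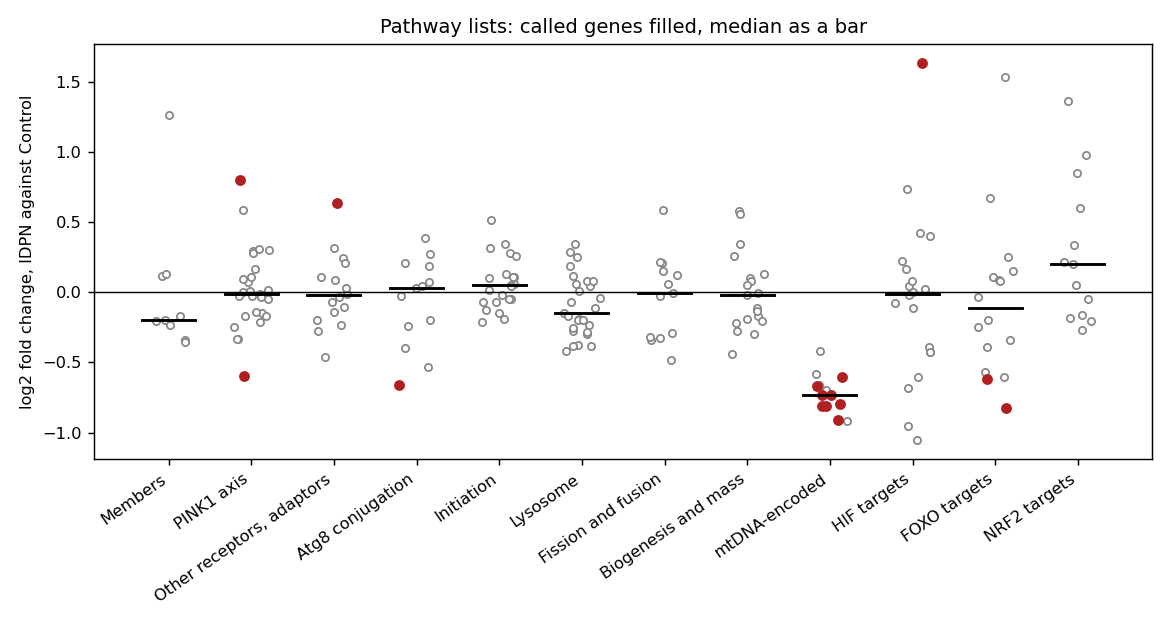
Log2 fold change of each tested gene in the members and in 11 pathway lists, filled red where called by DESeq2, with the list median as a bar. List medians run from -0.20 (members) to 0.20 (NRF2 targets), except for the mitochondrially encoded genes at -0.73.

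Lists of genes known as targets of factors that act on the members were read beside the 5.75% of all genes that DESeq2 called. At an unadjusted DESeq2 p under 0.05 were 25% of the HIF targets, 1 higher and 4 lower. The share was 18.8% of the FOXO targets, all lower, and 16.9% of all genes. Of 20 HIF targets, Adm, the adrenomedullin gene, was called higher, with 47.3, 60.0 and 42.7 counts in Control and 142, 154 and 168 in IDPN (1.63, DESeq2 Padj 1.35e-05, edgeR Padj 0.0105). The list median was -0.01. Of 16 FOXO targets, 2 were called lower. Bcl6, a transcriptional repressor gene, was 954, 1215 and 1157 in Control and 622, 674 and 587 in IDPN (-0.82, DESeq2 Padj 0.000208, edgeR Padj 0.0152). Fbxo32, the atrogin-1 ubiquitin ligase gene, was 11879.7, 10590.0 and 9478 in Control and 6962, 7133 and 6744 in IDPN (-0.62, DESeq2 Padj 0.00164, edgeR Padj 0.066). With total-count scaling Adm kept its call, and Bcl6 (-0.58, Padj 0.145) and Fbxo32 (-0.35, Padj 0.305) did not.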

How the data were processed

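Paired reads of 6 SMART-seq2 libraries (6 to 11 ng RNA, 8 and 12 amplification cycles, no molecular identifiers, not stranded) were processed by the authors with STAR 2.5.3a and RSEM 2.3.0 on GRCm38. The values the authors deposited are estimated counts (expected counts) per gene, as whole numbers without normalization. From these, DESeq2 1.42.0 (R 4.3.3) median-of-ratios factors and Wald tests were computed over all genes, with calls at Padj under 0.05 and a fold change above 1.5. edgeR 4.0.16 was the first alternative. Confidence intervals are at 95%. Replicates are separate animals.

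The members and lists were chosen with earlier results of these data known. Named were all members, 7 partner genes, Atf3, up to 4 called genes per list with the largest change, and the 6 genes closest to Pink1 with a mean normalised count of at least 100. GENCODE M21, later than the authors' annotation, gave gene positions, lengths and GC content for 99.6% of genes. GC and length offsets (lowess span 0.3) were added after seeing the data. In data simulated for IDPN against Control, DESeq2 recovered 84% of 200 genes changed 4-fold among 16310, and 19.6% of its 209 calls were false, while edgeR recovered 80% with 7.51% of 173 false. No member differed by as much as 4-fold (Pink1, the largest, by 2.40-fold), so these rates do not give the power for the members. Of the pathway lists and partner genes, 1 gene is not reported here.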

Additional observations from a re-analysis of the deposited data

How the results depend on the processing

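No member was called lower under any of the 17 alternatives. The count of members called higher, 0 in the main analysis, was 1 (Pink1) with total-count scaling, with edgeR without a low-count filter and with GC offsets, and 0 to 1 when a library was left out. With total-count scaling signs turned for Bnip3l (0.079), Map1lc3a (0.063), Map1lc3b (0.078) and Gabarapl1 (0.041). With a library left out, Map1lc3a ran from -0.39 to 0.049, turning sign without Control 2 (0.0014) or IDPN 1 (0.049), and Sqstm1 from -0.082 to 0.27, turning without Control 3 (-0.052) or IDPN 2 (-0.082). The cause was not tested. Of the pathway genes, 3 were called higher and 12 lower. The higher count was 1 with edgeR, 5 with edgeR without a low-count filter, 0 when tested against a 1.5-fold change, and 1 to 8 when a library was left out, with 8 without Control 3. The lower count was 1 with edgeR, 1 with total-count scaling, 0 when tested against a 1.5-fold change, 6 with length offsets, and 5 to 22 when a library was left out, with 5 without Control 1, Control 2 or IDPN 1 and 22 without Control 3. No paired analysis was possible because the labels give no replicate numbers that are shared between the groups. With 3 animals a group, a 1.5-fold decrease of Bnip3, Fundc1, Map1lc3a or Gabarapl1 was not excluded.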
